A study of Mus musculus with 46 samples.

Results

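Macrophages sorted from obstructed mouse kidneys were compared, across all genes, with macrophages sorted from sham-operated kidneys. The comparison held 8 samples, 4 after unilateral ureteric obstruction (UUO) and 4 after sham surgery, chosen by their labelled cell type (F4/80+) and surgery, of the 44 samples in the gene expression table and the 46 labelled in the whole series. In UUO 1 ureter is closed, so that urine backs up into that kidney. All mice were wild-type C57BL/6 males of 8 to 12 weeks, and every kidney was flushed with saline before cells were sorted by flow cytometry. The study worked with UUO of 2 and of 7 days, and the labels of these samples do not give the day. Another group of macrophages, 3 samples from mice whose obstruction had been reversed (rUUO), entered the filter on low levels and the estimate of the spread but no contrast. Each label names a separate sample, but none names the mouse, so the p-values below measure the spread between these samples.

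Kidney macrophages are of several origins. Resident cells settle before birth and renew themselves in place, and carry F4/80 (encoded by Adgre1) and the growth factor receptor CSF1R. Monocytes that use the receptor CCR2 enter from the blood after injury and can become macrophages there. Macrophages take up dead cells, present peptides to T cells on MHC class II molecules, and secrete chemokines (proteins that draw in further leukocytes), cytokines and enzymes that digest matrix. In bulk RNA of a sorted population, a change in the mixture of cells and a change in RNA per cell cannot be told apart.

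Levels are given as FPKM, fragment counts scaled to transcript length and to the fragments mapped in a library, so that levels of genes can be set beside each other. Changes are differences of the mean log2(FPKM + 1), UUO minus sham, with their standard error (SE), so they understate the change of genes at low levels. A gene was called when its adjusted p from limma, a linear model with a spread shared across genes, was under 0.05 (Benjamini-Hochberg over the 13332 genes whose mean reached 1 FPKM). Rose and fell are used for called genes only. With 4 against 4 samples the exact two-sided permutation test cannot go below p = 0.0286.

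The cells carried their labelled markers. Adgre1 stood at 186, 186, 247 and 195 FPKM in sham samples 1 to 4 and at 191, 152, 215 and 208 FPKM in UUO samples 1 to 4, while the mean in the sorted tubule, endothelial and stromal groups was 0.667 to 0.987 FPKM. The groups overlapped and Adgre1 was not called (-0.09, SE 0.16, adjusted p = 0.814). Csf1r was 604, 530.1, 691 and 601 FPKM in the sham samples and 418, 372, 525 and 482 FPKM after UUO. The UUO samples lay below every sham sample (exact permutation p = 0.0286), but Csf1r did not pass the threshold across all genes (-0.44, adjusted p = 0.12). Ptprc, the gene of the leukocyte antigen CD45, was 257, 277, 245 and 266 FPKM against 156, 309, 233 and 188 FPKM and was not called (-0.28, adjusted p = 0.449). Pecam1, an endothelial marker, had means of 6.64 and 6.86 FPKM, and Pdgfrb, a stromal marker, 0.755 and 1.23 FPKM, in sham and UUO macrophages.

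The table gives no read totals. Summed FPKM was 724270 to 780348 in the sham and 729223 to 789276 in the UUO samples, and 12483 to 13481 and 11973 to 12936 genes reached 1 FPKM. The size of the smallest FPKM steps put the relative depth of the 8 libraries between 0.702 and 1.31 of their median. UUO sample 2 stood apart. Its correlation with the other UUO samples (Pearson's r of log2 values across genes, 0.8505 to 0.8849) was below that among the other 3 (0.8954 to 0.9184) and among sham samples (0.9015 to 0.9159). Its mitochondrial genes took 37.8% of summed FPKM, against 22.6 to 28.0% in the other 7, and the fifth of genes richest in GC had a median deviation of -0.39 from the macrophage mean on the log2 scale. Without it 736 genes were called, 465 higher and 271 lower, and 518 of the 665 genes reported below were among them. Leaving out sham sample 1, 2 or 3 gave 297, 272 and 415 called genes, and leaving out UUO sample 1 or 3 gave 380 and 442.

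After obstruction, monocyte, chemokine and immediate early genes were among those that rose, and those that fell held the classical MHC class II genes and the matrix protease genes Mmp13 and Mmp12. Of the 13332 genes tested, 381 rose (2.86%) and 284 fell (2.13%), 4.99% in all. Of the genes called, 241 rose and 233 fell by more than 1 on the log2 scale, and 357 of the risers and 239 of the fallers were protein-coding. The median change over all genes was -0.03. The 2 groups did not overlap for 11.7% of all genes tested, among them 348 of the risers and 267 of the fallers.

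**Figure D1:**
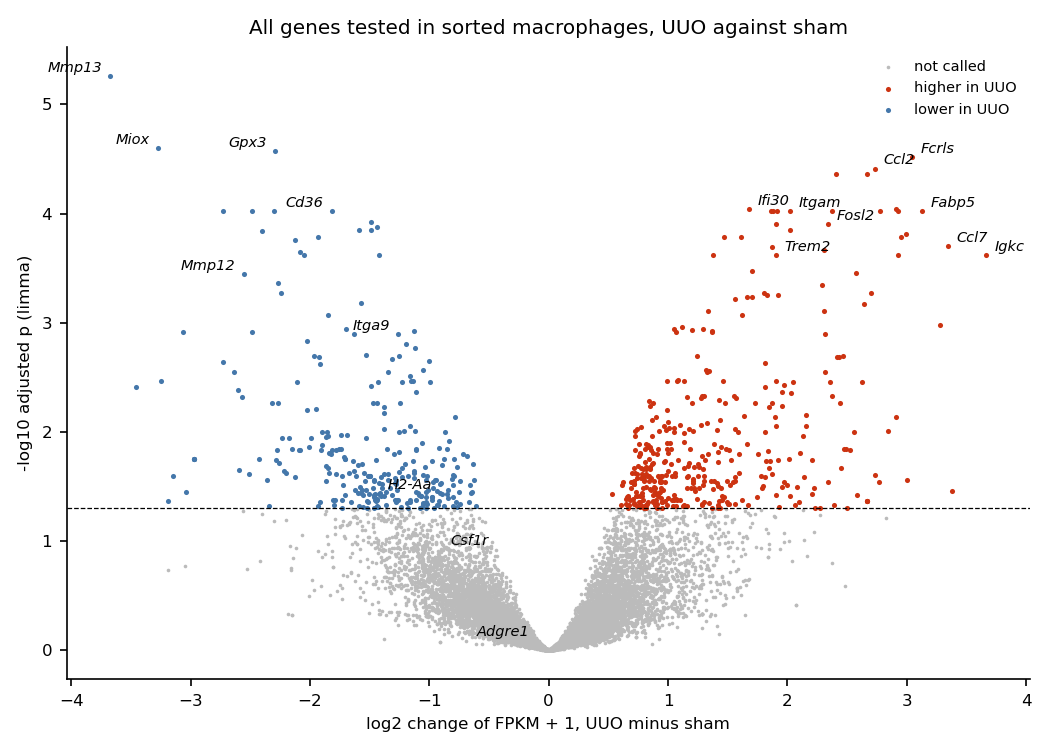
Change (x axis, log2 of FPKM + 1, UUO minus sham) against -log10 of limma's adjusted p (y axis) for the 13332 genes tested in sorted macrophages. Red marks the 381 genes called higher, blue the 284 called lower and grey the rest, and the dashed line is an adjusted p of 0.05; Mmp13 stands at the upper left and Fcrls, Ccl7 and Igkc at the right.

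The 12 largest rises among called genes whose groups did not overlap held secreted proteins, surface proteins and immunoglobulin genes. In mm10, Ccl7 (82045712 to 82047525) and Ccl8 (82115185 to 82116799) lie close together on chromosome 11, Fcrls lies on chromosome 3 (87250758 to 87263738) and Cd38 on chromosome 5 (43868553 to 43912375). Ccl7, a chemokine that acts on CCR2, went from 6.61, 1.44, 7.45 and 8.34 FPKM in the sham samples to 79.1, 40.2, 69.9 and 66.4 FPKM after UUO (3.35, SE 0.39, adjusted p = 0.000199). Sham sample 2 was the low one, and each UUO sample was well above every sham sample. Ccl8, a related chemokine, was 15.8, 19.1, 35.8 and 19.7 FPKM against 243, 93.7, 115 and 322 FPKM (2.93, SE 0.35, adjusted p = 0.000241), highest in UUO sample 4. Il1rn encodes the IL-1 receptor antagonist, which blocks IL-1 signalling. It was 7.61, 0.68, 7.94 and 1.29 FPKM in the sham samples, where 2 were high and 2 low, and 50.6, 32.8, 44.9 and 31.7 FPKM after UUO (3.28, SE 0.46, adjusted p = 0.00104).

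Fcrls, an Fc receptor-like gene of myeloid cells, had the smallest adjusted p of the 12. It was 15.9, 9.31, 24.7 and 16.9 FPKM and then 172, 98.9, 139 and 154 FPKM (3.05, SE 0.25, adjusted p = 3.01e-05), with the groups far apart. Cd38, an enzyme at the cell surface that breaks down NAD, was 3.77, 9.19, 10.2 and 3.83 FPKM against 50.5, 45.9, 61.7 and 57.2 FPKM (2.93, SE 0.30). Fabp5, a carrier of fatty acids, was 1.87, 3.87, 2.93 and 1.19 FPKM against 49.02, 19.7, 22.5 and 27.7 FPKM (3.13, SE 0.32). For both, the UUO samples lay above all sham samples. Ier3, a gene of the early stress response, rose by 3.00 (SE 0.33), and Nxpe5 rose by 2.95 (SE 0.33). The long non-coding RNA AC238811.2 rose by 2.91 (SE 0.28), from 17.4, 6.95, 14.8 and 13.3 FPKM to 73.4, 161, 84.03 and 103 FPKM. The histone gene Hist1h2bl rose by 3.00 (SE 0.71), but it is 1 of many near-identical copies among which reads can be split.

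Igkc, the constant region of the immunoglobulin kappa light chain, made the largest rise of all. It was 11.9, 16.6, 12.3 and 32.9 FPKM in the sham samples and 106, 628, 188 and 208 FPKM after UUO (3.67, SE 0.44, adjusted p = 0.000241), highest in UUO sample 2. Igha, the constant region of the IgA heavy chain, was 0.34, 0, 0 and 0.84 FPKM against 9.73, 5.44, 20.7 and 18.3 FPKM (3.38, SE 0.84). Macrophages do not rearrange these genes, and the B cell markers are given with the other cell types below.

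The 12 largest falls were led by Mmp13, a collagenase gene on chromosome 9 (7272514 to 7283331, mm10). Mmp13 was 158, 178, 169 and 153 FPKM in the sham samples and 13.3, 6.74, 15.9 and 14.04 FPKM after UUO (-3.67, SE 0.24, adjusted p = 5.46e-06), the smallest adjusted p of all genes. The sham samples lay close together and the UUO samples far below. Hs3st1, an enzyme that adds sulphate to heparan sulphate chains, was 22.5, 27.6, 18.8 and 33.3 FPKM against 3.28, 0.49, 5.62 and 1.23 FPKM (-3.06, SE 0.44). Adgrl3, an adhesion receptor of the latrophilin family, was 26.6, 16.96, 11.6 and 10.1 FPKM against 0.14, 1.73, 2.59 and 2.17 FPKM (-2.73, SE 0.43). Agap2, a regulator of small GTPases, was 8.91, 5.4, 6.55 and 11.02 FPKM against 0.04, 0.24, 0.59 and 1.05 FPKM (-2.60, SE 0.44). None of the UUO samples of these genes reached the lowest sham sample.

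Slc6a12, a transporter of betaine and GABA, ranged widely in the sham samples (30.4, 2.28, 7.91 and 10.7 FPKM) and was listed at 0 in UUO samples 1 to 3 and at 0.31 FPKM in sample 4. The pseudogenes Gm30671 and Rpl29-ps1 were likewise listed at 0 in 3 and in all 4 UUO samples. Sham values were 15.02, 29.7, 1.84 and 10.4 FPKM for Gm30671 and 7.46, 13.8, 0.32 and 7.02 FPKM for Rpl29-ps1, and reads of a pseudogene can be shared with its parent gene. The non-coding RNA 4930479D17Rik fell by 3.46 (SE 0.58) and the unclassified transcript Gm37354 fell by 2.63 (SE 0.42).

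Miox, Fxyd2 and Klk1 complete the falls and are genes of kidney tubule cells. Miox, which breaks down inositol in the proximal tubule, was 47.2, 40.8, 34.5 and 51.7 FPKM against 3.01, 2.73, 3.61 and 5.26 FPKM (-3.27, SE 0.26). Fxyd2, a subunit of the sodium pump, was 153, 194, 173 and 237 FPKM against 38.1, 13.6, 33.4 and 31.96 FPKM (-2.73, SE 0.28). Klk1, tissue kallikrein of the distal nephron, was 32.9, 173, 196 and 169 FPKM against 14.2, 17.8, 26.8 and 19.1 FPKM (-2.57, SE 0.45), with sham sample 1 far below the other sham samples. Klk1 belongs to a family of close copies that can share reads. Their levels in tubule cells are set beside these values below.

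**Figure D2:**
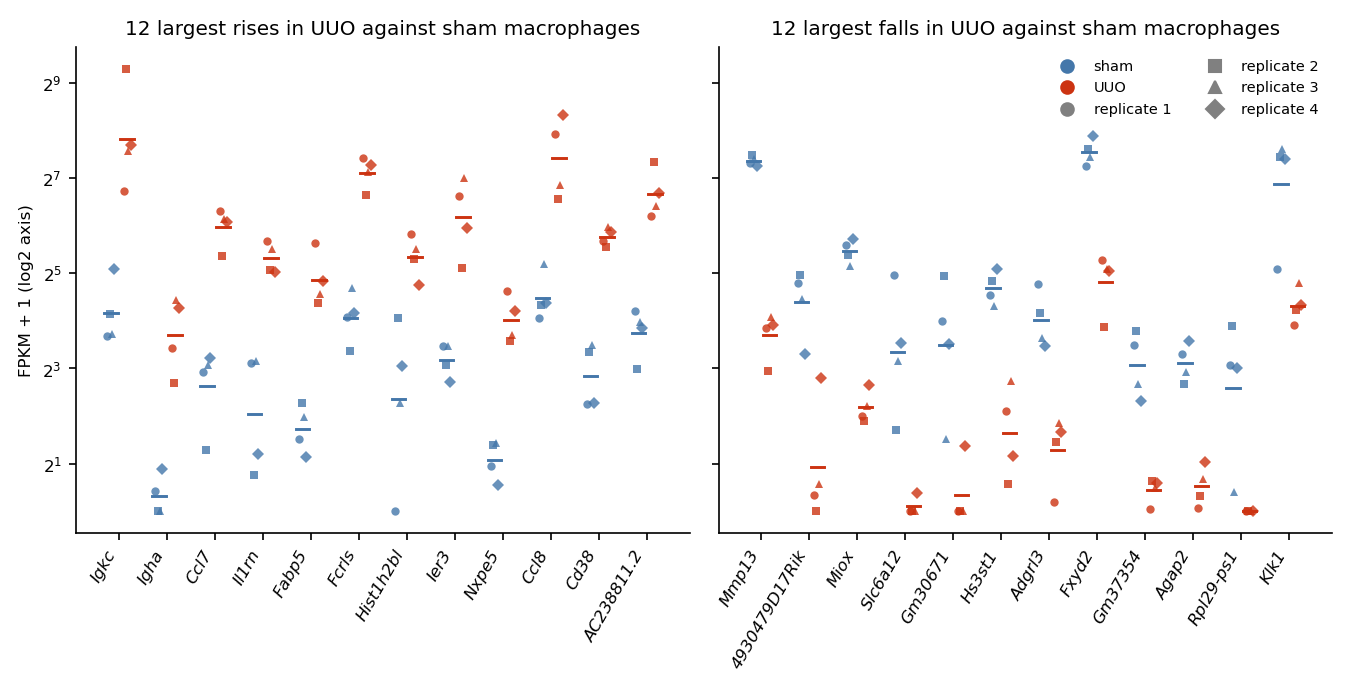
FPKM + 1 (y axis, log2 scale) of the 12 largest rises (left) and 12 largest falls (right) in each macrophage sample; blue is sham, red is UUO, the marker's shape gives the replicate number and the short bar is the mean on the log2 scale. No UUO sample overlaps a sham sample in any of the 24 genes, which is part of how they were chosen.

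The lists of macrophage functions held 359 genes that were tested. Of these, 93 were called (25.9%, against 4.99% of all genes), 76 higher and 17 lower, and their median change was 0.45. The lists were drawn up around macrophage biology with earlier results of these data known, so each is described by its counts and its median and set beside those of all genes. Over all genes tested 2.86% rose and 2.13% fell, with a median change of -0.03.

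Of the 24 monocyte and monocyte-derived genes tested, 8 rose and none fell, 33.3% against 2.86% of all genes, with a median of 1.25. Ccr2, the receptor that guides monocytes out of the bone marrow and into tissue, was 50.2, 81.4, 87.7 and 79.3 FPKM in the sham samples and 224, 241, 241 and 199 FPKM after UUO (1.61, SE 0.18, adjusted p = 0.000164). All UUO samples were close together and above the highest sham sample. Plac8, high in blood monocytes, was 1.14, 1.07, 3.14 and 5.31 FPKM against 14.9, 7.93, 14.5 and 19.5 FPKM (2.15, SE 0.39). Nr4a1, a nuclear receptor induced early after stimulation, was 8.31, 7.12, 6.65 and 6.68 FPKM against 31.3, 18.9, 28.3 and 25.6 FPKM (1.71, SE 0.21). S100a6, a calcium-binding protein, was 15.6, 16.4, 23.9 and 21.3 FPKM against 80.5, 27.1, 67.3 and 52.1 FPKM (1.42, SE 0.31), lowest of the UUO group in sample 2. F13a1, the A chain of clotting factor XIII, rose by 2.20 (SE 0.47), and S100a10 rose by 1.97 (SE 0.47), although for both 1 UUO sample lay within the sham range. Ly6c2, the antigen by which inflammatory monocytes are recognised, did not pass (1.89, adjusted p = 0.0592), nor did Chil3 (1.53, adjusted p = 0.0639). Only UUO sample 2 (0.74 FPKM) lay within the sham range of Ly6c2. Without that sample limma called Ly6c2 (2.49, adjusted p = 0.00289) but not Chil3 (adjusted p = 0.0643), and 10 of the list rose. The summed level of the list was 260 to 323 FPKM in the sham samples and 594 to 990 FPKM after UUO. Some of these genes also changed in other sorted populations. In tubule, endothelial and stromal cells the fitted change was 3.14, 0.60 and 3.33 for Plac8 and 1.10, 1.58 and 1.73 for Nr4a1. It was 3.18, 0.10 and 1.79 for S100a6 and 3.02, -0.16 and 0.29 for S100a10. For Ccr2 it was 0.32, 0.04 and -0.08, and for F13a1 0.03, -0.03 and -0.37.

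Of 16 macrophage identity genes tested, 3 rose and none fell, 18.8% against 2.86% of all genes, with a median of -0.06. At an unadjusted p under 0.05, 5 were higher and 4 lower. Itgam, the integrin chain CD11b, which newly arrived monocytes carry at high levels, was 78.6, 72.7, 91.7 and 61.97 FPKM in the sham samples and 345, 445, 235 and 256 FPKM after UUO (2.02, SE 0.21, adjusted p = 9.52e-05). The table lists Itgam under 2 identifiers that can split its reads, and these are the values of the higher one. Lyz2, lysozyme, was 4028, 4202, 7175 and 4893 FPKM against 10873, 7993, 10907 and 8021 FPKM (0.92, SE 0.21). Mertk, a receptor for dying cells, was 6.34, 5.21, 4.8 and 5.09 FPKM against 11.8, 14.99, 16.5 and 17.5 FPKM (1.34, SE 0.21). In each of the 3 the UUO samples lay above all sham samples. The transcription factor gene Spi1 (-0.03, adjusted p = 0.96) and the fractalkine receptor Cx3cr1 (-0.17, adjusted p = 0.634) were not called.

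The genes of resident kidney macrophages split. Of 22 tested, 2 rose and 3 fell, 9.09% and 13.6% against 2.86% and 2.13% of all genes, with a median of 0.31. Cd81, a tetraspanin high in resident kidney macrophages, was 1054, 1228, 1054 and 1033 FPKM in the sham samples and 519, 369, 577 and 553 FPKM after UUO (-1.13, SE 0.16, adjusted p = 0.00119). Hpgd, which breaks down prostaglandins, was 202, 249, 318 and 263 FPKM against 76.9, 88.3, 143 and 109.9 FPKM (-1.32, SE 0.20). Itga9, an integrin chain, was 110.1, 119, 136 and 96.8 FPKM against 36.3, 50.7, 49.3 and 55.3 FPKM (-1.26, SE 0.18). The groups of all 3 stood apart. Mrc1, the mannose receptor, rose from 152, 143, 186 and 151 FPKM to 270.3, 275, 235 and 273 FPKM (0.74, SE 0.14), and Ms4a7 rose by 0.80 (SE 0.19). The complement genes C1qa (-0.74, adjusted p = 0.473), C1qb (-0.12, adjusted p = 0.772) and C1qc (-0.30, adjusted p = 0.333) were not called. C1qa was 1458, 176, 1355 and 1621 FPKM after UUO, with sample 2 far below the rest, and 1353, 1315, 1320 and 1888 FPKM in the sham samples. Without UUO sample 2, 4 of the list rose and 3 fell.

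The classical MHC class II genes fell. Of the 15 genes for MHC class II and antigen presentation that were tested, 5 fell and 2 rose, 33.3% lower against 2.13% of all genes, with a median of -0.75. H2-Aa, the alpha chain of I-A, was 15544, 17055, 17838 and 19462 FPKM in the sham samples and 10187, 5644, 12105 and 10581 FPKM after UUO (-0.91, SE 0.23, adjusted p = 0.0362). H2-Ab1, its beta chain, was 11287, 10144, 11778 and 15092 FPKM against 5887, 5702, 7645 and 6947 FPKM (-0.88, SE 0.19, adjusted p = 0.0175). H2-Eb1, the beta chain of I-E, was 5071, 5221, 5282 and 7082 FPKM against 3034, 1706, 4201 and 3099 FPKM (-0.97, SE 0.24, adjusted p = 0.0324). For the 3 chains the highest UUO sample was below the lowest sham sample, and UUO sample 2 was the lowest of all 8 in each.

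Cd74, the invariant chain that escorts class II molecules, was 21425, 22321, 20908 and 25039 FPKM in the sham samples and 11480, 13566, 13479 and 15064 FPKM after UUO (-0.75, SE 0.18, adjusted p = 0.0278). H2-Oa, a chain of the modulator H2-O, was 43.9, 26.9, 17.9 and 40.7 FPKM against 5.82, 2.23, 13.5 and 5.33 FPKM (-2.23, SE 0.44, adjusted p = 0.0113), the largest fall of the list. H2-DMa (-0.80, adjusted p = 0.0515) and Ciita, the master regulator of class II transcription (-0.42, adjusted p = 0.233), did not overlap between groups but were not called. The 2 risers were Ifi30, a lysosomal enzyme that reduces disulphide bonds of antigens (78.7, 76.8, 106 and 109 FPKM against 329, 308, 258 and 288 FPKM, 1.68, SE 0.16), and Cd40, a co-stimulatory receptor (6.34, 7.73, 10.98 and 10.98 FPKM against 16.9, 23.4, 19.5 and 19.9 FPKM, 1.09, SE 0.24). The list summed to 56339 to 70497 FPKM in the sham samples and 29778 to 40901 FPKM after UUO. Without UUO sample 2, 7 of the 15 genes fell.

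The promoters of class II genes are known for a shared set of short elements, of which the Y box, an inverted CCAAT box, is the one nearest to the start. They are shown here for the 3 classical and modulator genes that fell and had an entry, as the 120 bases before the annotated start, 5′ to 3′ on the gene's strand (RefSeq, build GRCm38.p6). Capitals mark GATTGG or its reverse complement. H2-Aa lies at chr17:34287824-34287943 (minus strand), H2-Eb1 at chr17:34305747-34305866 (plus strand) and H2-Oa at chr17:34092259-34092378 (plus strand).
H2-Aa: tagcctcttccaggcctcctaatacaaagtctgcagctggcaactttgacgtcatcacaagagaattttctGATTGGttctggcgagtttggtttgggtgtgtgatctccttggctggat
H2-Eb1: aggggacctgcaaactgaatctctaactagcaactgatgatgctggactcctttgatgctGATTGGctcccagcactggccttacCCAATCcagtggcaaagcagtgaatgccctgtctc
H2-Oa: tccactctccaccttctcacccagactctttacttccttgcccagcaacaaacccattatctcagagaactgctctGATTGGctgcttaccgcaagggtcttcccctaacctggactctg
The first base of the match was 49 bases before the start in H2-Aa, 60 and 35 in H2-Eb1 and 44 in H2-Oa. GATTGG on either strand was found in 9.67% of 32851 promoter windows of this length. Of the 8 H2 genes listed, 7 had an entry and 6 held the letters (H2-Aa, H2-Eb1, H2-DMb1, H2-DMb2, H2-Oa and H2-Ob), of which 3 were called. A match describes these letters only.

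Of 21 chemokine genes tested, 9 rose and none fell, 42.9% against 2.86% of all genes, with a median of 1.24. Beside Ccl7 and Ccl8, Ccl2, the main ligand of CCR2, was 19.02, 12.7, 29.4 and 13.2 FPKM in the sham samples and 151, 105, 117 and 121 FPKM after UUO (2.73, SE 0.24, adjusted p = 3.87e-05). Its UUO samples lay within a narrow range, far above the sham samples. Ccl9, a ligand of CCR1, was 23.1, 36.6, 37.8 and 28.3 FPKM against 144, 81.7, 112 and 137 FPKM (1.87, SE 0.22). Ccl17, a ligand of CCR4, was 0.33, 5.03, 0.31 and 3.55 FPKM against 9.39, 15.8, 26.4 and 11.1 FPKM (2.56, SE 0.50). Ppbp, a chemokine best known from platelets, was 1.83, 1.18, 2.39 and 0.15 FPKM against 54.1, 22.7, 9.17 and 2.92 FPKM (2.77, SE 0.66), a wide spread, and without UUO sample 2 it no longer passed (adjusted p = 0.054). Ccl3 (0.36, adjusted p = 0.497), Ccl4 (-0.12, adjusted p = 0.9) and the interferon-induced Cxcl9 (-0.23, adjusted p = 0.583) were not called. The list summed to 997 to 1407 FPKM in the sham samples and 1542 to 2827 FPKM after UUO. In tubule, endothelial and stromal cells the fitted change of Ccl2 was 2.28, 2.42 and 2.48. The macrophage change was not told from these (limma interaction, adjusted p = 0.591, 0.837 and 0.78). The fitted changes there were 0.02, 0.26 and 2.35 for Ccl9, 0.01, 0.23 and 0.10 for Ccl17, and 0.71, -0.30 and -1.36 for Ppbp.

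Among 12 receptors for chemokines and other attractants, 4 rose and none fell (33.3%), with a median of 0.62. Ccr1, a receptor of several of the chemokines above, was 1.29, 2.91, 0.96 and 2.73 FPKM against 19.8, 3.87, 13.8 and 10.5 FPKM (2.01, SE 0.43), lowest of the UUO group in sample 2. Ccrl2, a receptor that binds the attractant chemerin, was 6.62, 12.9, 8.52 and 11.3 FPKM against 27.7, 16.5, 45.5 and 39.3 FPKM (1.56, SE 0.30). Cxcr4, the receptor of CXCL12, was 21.02, 19.97, 28.1 and 34.4 FPKM against 63.3, 37.9, 68.6 and 46.1 FPKM (1.03, SE 0.23). With Ccr2 these made up the risers, and none of the 4 overlapped between groups. The complement receptor genes C5ar1 (0.03, adjusted p = 0.944) and C3ar1 (0.04, adjusted p = 0.919) were not called.

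Cytokine and inflammasome genes gave 5 rises and 1 fall among 17 tested (29.4% and 5.88%), with a median of 0.44. Beside Il1rn, the risers held genes that raise and genes that dampen inflammation. Il1a, an alarm cytokine, was 0.34, 0.36, 0.05 and 0 FPKM in the sham samples and 3.79, 1.05, 3.64 and 1.34 FPKM after UUO (1.45, SE 0.37). Il10, which dampens inflammation, was 0.09, 0.09, 0 and 0.18 FPKM against 8.3, 3.04, 1.31 and 5.41 FPKM (2.16, SE 0.41). Both were low genes whose UUO samples all exceeded the sham samples. Osm, oncostatin M, a cytokine of the IL-6 family, was 1.01, 3.17, 0.87 and 2.16 FPKM against 14.6, 10.4, 16.2 and 8.59 FPKM (2.30, SE 0.31). Ptgs2, which makes prostaglandins, was 0.6, 0.39, 2.25 and 1.1 FPKM against 9.16, 9.96, 15.5 and 9.42 FPKM (2.58, SE 0.32). Cd14, a co-receptor for bacterial lipopolysaccharide, fell from 338, 400.3, 391 and 444 FPKM to 187, 105, 254 and 213 FPKM (-1.11, SE 0.23). Il1b (0.37, adjusted p = 0.429), Tnf (0.24, adjusted p = 0.72) and Nlrp3 (-0.54, adjusted p = 0.37) were not called.

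Immediate early genes, which switch on within minutes of a stimulus and also of cell handling, gave 11 rises and no fall among 25 tested (44.0%), with a median of 0.77. Fosl2, a partner in the AP-1 factor, was 3.71, 8.77, 5.12 and 5.77 FPKM in the sham samples and 32.4, 26.7, 37.7 and 33.9 FPKM after UUO (2.34, SE 0.25, adjusted p = 0.000126). Fos, another AP-1 gene, was 43.9, 57.3, 54.2 and 52.6 FPKM against 97.96, 107, 149.9 and 132 FPKM (1.20, SE 0.17). Ier3 was 10.1, 7.43, 10.04 and 5.57 FPKM against 98.2, 33.6, 128 and 61.1 FPKM. In all 3 the groups were apart. Klf4, a transcription factor of monocytes, was 6.83, 3.86, 8.31 and 3.12 FPKM against 17.6, 10.1, 14.96 and 11 FPKM (1.19, SE 0.29). Junb rose by 1.29 (SE 0.34), although UUO sample 2 (27.1 FPKM) lay within the sham range. Jun (0.39, adjusted p = 0.278) and the heat shock genes Hspa1a (0.25, adjusted p = 0.602) and Hspa1b (-0.20, adjusted p = 0.75) were not called. Several of these genes also changed in the other sorted populations. In tubule, endothelial and stromal cells the fitted change was 2.92, 1.26 and 2.06 for Fos and 2.25, 1.62 and 1.42 for Fosl2. It was 2.01, 0.86 and 1.63 for Junb, 3.68, 1.08 and 2.33 for Ier3, and 2.04, -0.76 and 2.53 for Klf4. The time each kidney spent in digestion and sorting is not in the labels, and its part in these values was not tested.

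**Figure D3:**
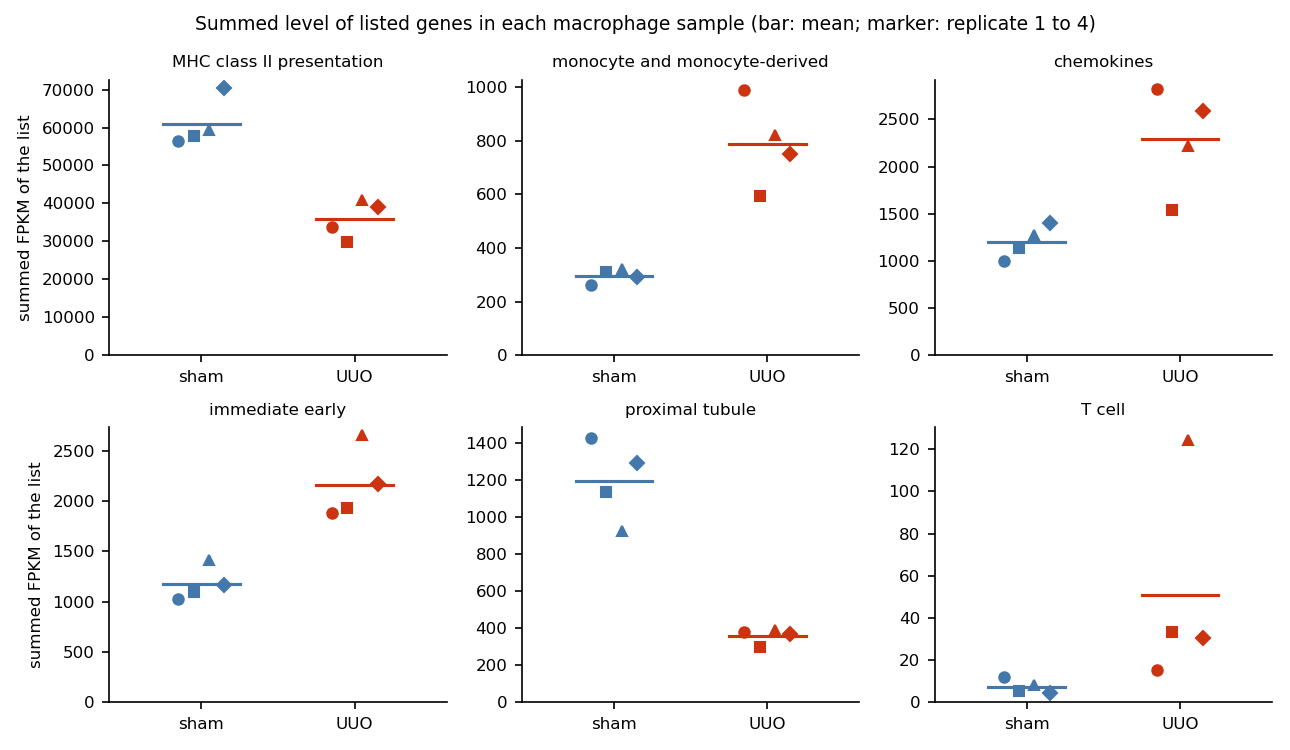
Summed FPKM of 6 gene lists (y axes, each from 0) in each of the 4 sham (blue) and 4 UUO (red) macrophage samples; the bar is the mean and the marker's shape the replicate number. The sums for MHC class II (56339 to 70497 FPKM in sham, 29778 to 40901 after UUO) and proximal tubule genes are lower in all UUO samples, and those for monocyte, chemokine, immediate early and T cell genes are higher.

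Genes of lipid-associated macrophages, a state named after the receptor TREM2, moved both ways: 7 of 20 rose and 3 fell, with a median of 0.49. Trem2 was 12.5, 9.94, 16.8 and 11.2 FPKM in the sham samples and 66.03, 35.6, 46.4 and 53.8 FPKM after UUO (1.91, SE 0.23, adjusted p = 0.000239). Ctsd, a lysosomal protease, was 118, 116, 158 and 109.5 FPKM against 613, 339, 410.0 and 522 FPKM (1.88, SE 0.19). Gpnmb, a glycoprotein of this state, was 2.83, 0.34, 2.58 and 0.34 FPKM against 36.2, 2.01, 7.89 and 11.03 FPKM (2.23, SE 0.61, adjusted p = 0.0492), and its groups overlapped at UUO sample 2. Spp1, osteopontin, was 30.2, 41.3, 37 and 34.03 FPKM against 284, 181, 151 and 133 FPKM (2.31, SE 0.27). Injured tubule cells make Spp1 too, and the RNA that a common tubule share (below) would carry equalled 23.5% of its level in the sham and 48.4% in the UUO macrophages. Subtracted gene by gene, it left Spp1 called (adjusted p = 0.0383), but subtraction with the larger, summed share turned the change to -1.44 (adjusted p = 0.582). In that subtraction Spp1 went below 0 in UUO samples 3 and 4 and was set to 0 there. UUO samples 1 and 2 stayed above the sham samples, so -1.44 is not a lower level in all UUO samples. Mmp12, macrophage elastase, fell from 201, 251, 139.6 and 253 FPKM to 39.7, 26.9, 67.4 and 18.6 FPKM (-2.56, SE 0.32, adjusted p = 0.000355). Lgals3 (0.49, adjusted p = 0.422), Cd9 (-0.12, adjusted p = 0.844) and Apoe (0.49, adjusted p = 0.355) were not called. Without UUO sample 2, 11 of the list rose and 3 fell.

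Of 17 receptors and ligands for phagocytosis, 4 rose and 2 fell (23.5% and 11.8%), with a median of 0.29. Cd36, a scavenger receptor for oxidised lipid, fell from 166, 154, 216 and 242 FPKM to 48.7, 43.3, 62.4 and 62.02 FPKM (-1.82, SE 0.19, adjusted p = 9.52e-05). Axl fell from 378, 405, 403 and 328 FPKM to 162, 136, 263 and 160.2 FPKM (-1.11, SE 0.19), while Mertk, a kinase of the same family, rose as given above. Msr1, scavenger receptor A, rose from 59.4, 63.3, 51.9 and 49.5 FPKM to 170.0, 151, 116 and 106 FPKM (1.25, SE 0.19). No UUO sample overlapped the sham samples in these genes. Cd300lf, a receptor for lipids of dying cells, rose by 2.05 (SE 0.34) and Lrp1 rose by 0.81 (SE 0.22). Among 21 lysosomal genes 5 rose and 1 fell (23.8% and 4.76%), with a median of 0.20. Beside Ctsd, the protease gene Ctsl was 56.9, 63.01, 70.96 and 62.9 FPKM against 290.1, 162, 138 and 259 FPKM (1.66, SE 0.22), Cstb rose by 1.06, and Lgmn and the membrane gene Lamp1 rose by 0.73 and 0.72. Cst3, cystatin C, a secreted protease inhibitor, fell from 3206, 3500, 3564 and 3989 FPKM to 1636, 1328, 1949 and 1683 FPKM (-1.12, SE 0.17, adjusted p = 0.0017).

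Of 18 complement genes 5 rose and none fell (27.8%), with a median of 0.04, near that of all genes. Cfp, properdin, which stabilises the alternative pathway convertase, was 10.8, 14.3, 19.4 and 15.2 FPKM in the sham samples and 97.2, 93.5, 52.2 and 85.98 FPKM after UUO (2.37, SE 0.24, adjusted p = 9.47e-05). C4b, a gene with a close copy that can share its reads, was 7.3, 7.6, 19.02 and 3.44 FPKM against 48.8, 55.6, 25.8 and 57.1 FPKM (2.36, SE 0.39). Cfb, factor B, was 17.5, 16.5, 11.3 and 14.4 FPKM against 54.9, 65.4, 35.7 and 71.7 FPKM (1.83, SE 0.24), of which a common tubule share equals 38.3% in the sham and 5.34% in the UUO samples. The UUO samples of these genes were above all sham samples. C3 rose by 1.43 (adjusted p = 0.043) with overlapping groups, and without UUO sample 2 it no longer passed (adjusted p = 0.0678). Itgam, a chain of a complement receptor, is the remaining riser.

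The genes for matrix, proteases and growth factors gave 5 rises and 2 falls among 25 tested, with a median of 0.97. Over all genes tested 2.86% rose and 2.13% fell. The metalloproteases went in opposite directions. Mmp14, a membrane-bound collagenase, was 5.3, 6.63, 6.64 and 7.88 FPKM in the sham samples and 36.3, 22.6, 29.2 and 32.6 FPKM after UUO (2.02, SE 0.22, adjusted p = 0.000142), against the falls of the secreted Mmp13 and Mmp12. Adam8, a membrane protease, was 0.31, 0.52, 0.8 and 0.52 FPKM against 8.56, 3.22, 5.58 and 3.59 FPKM (1.95, SE 0.33). The groups were apart for both. Igf1, a growth factor, rose from 51.9, 56, 72.6 and 50.5 FPKM to 108, 133, 115 and 98.3 FPKM (0.97, SE 0.18). Ecm1, an extracellular matrix protein, was 7.61, 13.2, 9.31 and 1.63 FPKM against 98.2, 24.4, 24.6 and 14.7 FPKM (2.06, SE 0.55), highest in UUO sample 1, and without UUO sample 2 it no longer passed (adjusted p = 0.0519). Tgfb1 (-0.16, adjusted p = 0.663), Pdgfb (-0.86, adjusted p = 0.114) and Fn1 (1.09, adjusted p = 0.353) were not called.

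Mmp13 is the gene with the smallest adjusted p, and its promoter is shown because collagenase promoters are known for an AP-1 element near the start. The 120 bases before the start lie at chr9:7272394-7272513 (plus strand, RefSeq, GRCm38.p6), with TGANTCA in capitals, whose reverse complement has the same form.
Mmp13: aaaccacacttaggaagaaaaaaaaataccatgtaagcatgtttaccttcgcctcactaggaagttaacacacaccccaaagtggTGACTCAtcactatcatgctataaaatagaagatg
The match began 35 bases before the start, and TGANTCA was found in 3.41% of the 32851 windows. Of the 2 annotated starts of Mmp12, the window of 1 held no match and that of the other held 1, beginning 44 bases before the start. A match describes these letters, not a factor's binding.

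Of 12 genes of alternative activation, the state induced by IL-4 and IL-13, 3 rose and 1 fell (25.0% and 8.33%), with a median of 0.72. Arg1, arginase, was 1.65, 8.33, 2.49 and 0.81 FPKM in the sham samples and 79.8, 10.1, 15.8 and 12.4 FPKM after UUO (2.58, SE 0.65, adjusted p = 0.0377), with UUO sample 1 far above the other UUO samples. Mrc1 rose as given above. Tgm2, a cross-linking enzyme, rose by 1.56 (SE 0.37), and a common tubule share equals 49.6% of its sham level. Mgl2, a lectin of this state, went the other way, from 371, 319, 282 and 377 FPKM to 115, 121, 142 and 101 FPKM (-1.49, SE 0.16, adjusted p = 0.000119). Retnla (0.95, adjusted p = 0.591) was not called.

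Of 26 cell cycle genes 5 rose and none fell (19.2%), with a median of 0.82, and 25 of the 26 changes were positive. Mki67, the antigen of cycling cells, was 8.13, 7.39, 6.32 and 6.47 FPKM in the sham samples and 13.6, 25.5, 14.4 and 16.8 FPKM after UUO (1.17, SE 0.26, adjusted p = 0.0204). Ube2c, which acts at the end of mitosis, was 5.55, 3.64, 6.49 and 3.78 FPKM against 43.5, 21.8, 15.6 and 14.4 FPKM (1.97, SE 0.33). Stmn1, a regulator of microtubules, was 19.8, 17.7, 13.6 and 33.5 FPKM against 55.9, 60.4, 62.7 and 64.7 FPKM (1.56, SE 0.27). UUO samples exceeded all sham samples in each. Pcna, the replication clamp, rose by 0.71, and Rrm2, an enzyme of nucleotide synthesis, rose by 1.87. Top2a (0.93, adjusted p = 0.0676) and Cdk1 (0.68, adjusted p = 0.268) were not called. Without UUO sample 2, 8 of the list rose.

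Among 25 transcription factors of macrophages 4 rose and 1 fell (16.0% and 4.0%), with a median of 0.21. Runx1 fell from 139, 168, 141 and 125 FPKM to 67.6, 58.6, 63.2 and 87.1 FPKM (-1.05, SE 0.17, adjusted p = 0.00272). Tfec, a relative of Mitf that macrophages express, rose by 1.90 (SE 0.35), Bhlhe40 rose by 1.85 (SE 0.33) and Id2, an inhibitor of DNA binding, rose by 1.38 (SE 0.28), all at low levels. A common tubule share equals 29.01%, 25.6% and 21.9% of their sham levels, and with it subtracted the adjusted p was 0.00615, 0.0152 and 0.00827. Of 16 genes of iron and haem handling 2 rose (12.5%), with a median of 0.38. Hmox1, haem oxygenase, was 24.3, 35.7, 35.7 and 33.7 FPKM against 92.1, 45.4, 81.7 and 107 FPKM (1.25, SE 0.28). Lcn2, a carrier of iron-binding molecules and a marker of tubular injury, was 1.99, 0.53, 2.59 and 0.19 FPKM against 16.8, 8.36, 9.52 and 9.55 FPKM (2.47, SE 0.51). A common tubule share equals 55.6% of its UUO level, and Lcn2 was not called with that share subtracted (adjusted p = 0.218).

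In 3 lists no gene passed limma's threshold. At an unadjusted p under 0.05, 19.7% of all genes tested differed, 10.1% higher and 9.56% lower. Of 22 interferon-stimulated genes, 6 were higher and 1 lower at that level, with a median of 0.48. Isg15 (0.71, adjusted p = 0.349) and Irf7 (0.63, adjusted p = 0.403) are members, and Cxcl10 (0.89, adjusted p = 0.0538) came nearest to the threshold. Of 20 genes of glycolysis and the hypoxia response, 6 were higher and none lower at that level, with a median of 0.23. Ldha (0.57, adjusted p = 0.0506) came nearest, and Hif1a was at 0.27 (adjusted p = 0.601). Of 25 nuclear genes of the respiratory chain 5 were higher and none lower, against 10.1% and 9.56% of all genes, with a median of 0.12. Without UUO sample 2, 1, 0 and 4 genes of the 3 lists were called.

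**Figure D4:**
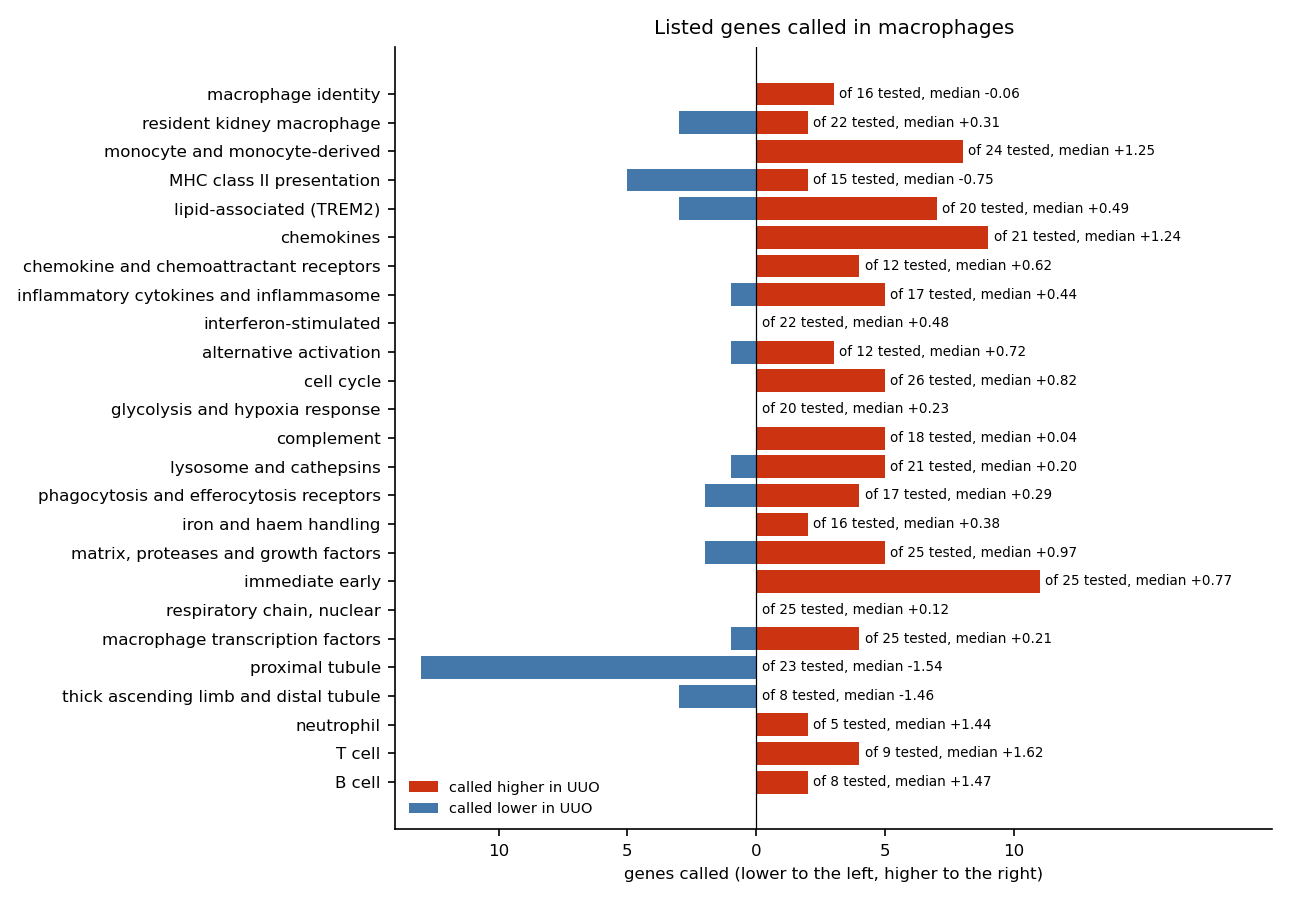
Number of genes called higher (red, right of 0) and lower (blue, left) in each list of macrophage functions and in 5 lists of other cell types, with the number tested and the median log2 change in words. Chemokine (9 of 21), immediate early (11 of 25) and monocyte genes (8 of 24) have the most called higher, and proximal tubule genes (13 of 23) the most called lower.

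Tubule genes were present in the sorted macrophages and lower after UUO. Of 23 proximal tubule genes tested, 13 fell and none rose, 56.5% against 2.13% of all genes, with a median of -1.54. Gpx3, a secreted peroxidase, was 867, 649.7, 473 and 645 FPKM in the sham samples and 153, 113, 125 and 135 FPKM after UUO (-2.29, SE 0.19, adjusted p = 2.65e-05). Slc34a1, the phosphate transporter, was 70.6, 65.2, 55.9 and 62.9 FPKM against 6.75, 11.5, 19.2 and 10.3 FPKM (-2.40, SE 0.27). For both, as for Miox, the groups were apart. Pck1, an enzyme of glucose synthesis, and Slc5a2, Slc4a4 and Slc22a6, transporters for glucose, bicarbonate and organic anions, fell as well (-2.11, -1.97, -1.91 and -1.60). The list summed to 922.6 to 1428 FPKM in the sham macrophages and 301 to 388 FPKM after UUO. Lrp2, megalin, was 9.75, 7.92, 6.7 and 5.95 FPKM against 1.36, 5.6, 2.66 and 2.26 FPKM and was not called (-1.20, adjusted p = 0.0619).

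Set against sorted proximal tubule cells of the same surgery, most of these genes stood at a share of a few percent. Gatm and Slc13a3 aside, the mean share ran from 3.23% (Acsm2) to 8.17% (Aqp1) in the sham macrophages. In the UUO macrophages it ran from 1.65% (Cubn) to 8.92% (Slc22a12). The median over 24 genes was 3.85 to 5.82% of the tubule level in the 4 sham macrophage samples and 2.66 to 3.21% in the 4 UUO samples, with means of 4.82 ± 0.825% and 2.91 ± 0.246% (SD, n = 4). The tubule means rest on 3 sham and 4 UUO samples, and the title of tubule UUO sample 2 names both surgeries while its treatment label says UUO. Without that sample, an alternative chosen after seeing the data, the share in the UUO macrophages was 2.52 to 3.01%, with a mean of 2.76 ± 0.224%. The tubule level itself was lower after UUO, 20752 FPKM summed over the 24 genes in sham and 7930 FPKM in UUO tubule cells. Gatm, an enzyme of creatine synthesis, and Slc13a3, a dicarboxylate transporter, stood apart from the common share. Gatm was at 20.8% of the tubule level in sham and 139% in UUO macrophages, and Slc13a3 at 34.5% and 48.4%, and neither was called (0.12 and -0.45).

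Multiplying the common share by the tubule level gave the RNA that such a share would carry. For 50 of the 284 genes that fell it was at least 50% of the sham level, for 19 it was 10 to 50%, and for 215 it was under 10%. The product covers proximal tubule RNA only, so genes of other tubule segments, such as Klk1, count among the 215. For 373 of the 381 risers it was under 10% of the UUO level, for 7 it was 10 to 50% and for 1 more than that. With the product subtracted from each sample, 202 of the fallers and 347 of the risers were still called, and 198 and 348 without tubule UUO sample 2. Of the 13 proximal tubule genes, 7 then had a mean under 1 FPKM and were not tested, and the adjusted p of the other 6 ran from 0.113 to 0.534. The share was estimated on these genes, so their own loss is fixed in part by the method. For Mmp13, Cd36, Cd81, Mgl2, H2-Aa, H2-Ab1 and H2-Eb1 the product was 0.0054 to 0.503% of the sham level, and all 7 were still called. For Miox it was 96.3% of the sham level, for Fxyd2 26.2% and for Klk1 1.63%, and with it subtracted the adjusted p was 0.282, 0.00498 and 0.0052. In the UUO samples the product exceeded the level of Miox (170%). For Klk1, a gene of the distal nephron, the subtraction does not cover RNA of distal cells. Sham endothelial and stromal samples held Klk1 at means of 515 and 547 FPKM and Fxyd2 at 188 and 167 FPKM. After UUO these means were 67.7 and 19.3 FPKM for Klk1 and 70.3 and 23.0 FPKM for Fxyd2.

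**Figure D5:**
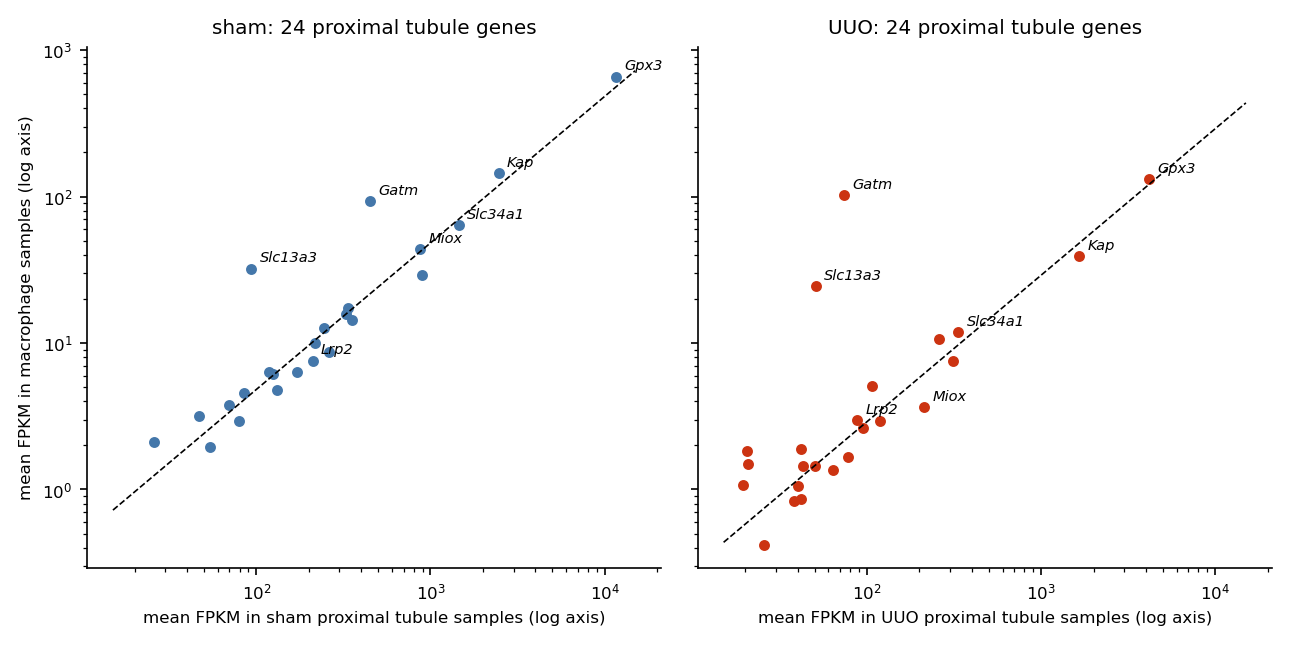
Mean FPKM of 24 proximal tubule genes in macrophage samples (y axis, log) against their mean in sorted proximal tubule cells of the same surgery (x axis, log), for sham (left) and UUO (right). The dashed line is the mean of the samples' median share, 4.82% in sham and 2.91% in UUO; Gatm and Slc13a3 lie above it in both.

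Of 8 genes of the thick ascending limb and distal tubule 3 fell and none rose (37.5% lower, against 2.13% of all genes), with a median of -1.46. Egf, made by distal tubule cells, was 8.34, 12.5, 12.8 and 8.25 FPKM against 0.96, 0.84, 0.75 and 1.6 FPKM (-2.49, SE 0.36). Slc12a3, the thiazide-sensitive transporter, was 13.2, 21.4, 20.9 and 29.9 FPKM against 6.2, 1.05, 1.4 and 10.5 FPKM (-2.26, SE 0.49), and Calb1, a calcium-binding protein, fell by 2.08 (SE 0.43). No sorted population holds these cells, so no share could be taken. Of 6 collecting duct genes none was called (median 0.07), 1 being higher and 1 lower at an unadjusted p under 0.05. Of 9 tubular injury genes, Lcn2 and Clu rose (22.2%, against 2.86% of all genes). Clu, clusterin, was 4.94, 18.03, 9.55 and 10.2 FPKM against 34.98, 36.7, 50.98 and 33.1 FPKM (1.87, SE 0.33), and a common proximal tubule share equals 31.4% of its UUO level. Havcr1, the injury molecule KIM-1, was 0.45, 0.83, 1.32 and 0.38 FPKM against 2.56, 1.35, 16.8 and 4.62 FPKM and was not called (1.65, adjusted p = 0.0887).

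Several markers of other leukocytes rose after UUO. Of 12 T cell genes 9 reached the filter, and 4 of these rose (44.4%, against 2.86% of all genes), with a median of 1.62. The filter took the mean over all macrophage samples, so a gene near 0 in sham reached it only through the other groups. This raises the share of risers and the median in lists of such genes, here and for the leukocytes below. Cd3e, a chain of the T cell receptor complex, was 0.72, 0, 0.07 and 0.05 FPKM in the sham samples and 1.19, 15.3, 18.9 and 4.37 FPKM after UUO (2.74, SE 0.63), and Lat was listed at 0 in all sham samples and at 1.55, 1.68, 5.59 and 0.97 FPKM after UUO. The T cell genes summed to 4.39 to 11.8 FPKM and 15.5 to 124 FPKM, highest in UUO sample 3, and without UUO sample 2 the number called was 2. Of 8 B cell genes Igkc and Cd79a rose (25.0%). Cd79a, a chain of the B cell receptor, was 1.12, 1.35, 1.3 and 1.9 FPKM against 2.1, 20.8, 15.1 and 10.6 FPKM (2.14, SE 0.50). Ighm, the IgM heavy chain, made up most of the list's level and was not called (351, 391, 403 and 438 FPKM against 259.6, 791, 365 and 334 FPKM, 0.01, adjusted p = 0.989). The list summed to 406 to 522 FPKM and 396 to 1500 FPKM, so that the groups overlapped, and without UUO sample 2 the number called was 1. The part of B or plasma cells in the immunoglobulin values was not tested.

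Of 15 neutrophil genes 5 reached the filter and 2 rose. S100a9 was 3.27, 2.22, 5 and 2.91 FPKM against 56.5, 7.94, 63.2 and 24.7 FPKM (2.84, SE 0.55), and S100a8 rose by 2.50 with overlapping groups. Monocytes also express both, and Ly6g, the antigen that defines neutrophils, was listed at 0 in all but UUO sample 3 (0.58 FPKM). Of 7 dendritic cell genes 2 fell and none rose (28.6% lower, against 2.13% of all genes), but the median was 0.46. At an unadjusted p under 0.05, 3 were higher and 2 lower. Without UUO sample 2 the number called was 1, and so it was with the common tubule share subtracted. Clec9a, a receptor of cross-presenting dendritic cells, was 32.9, 37.8, 26.7 and 27.4 FPKM against 7.11, 6.49, 12.01 and 10.7 FPKM (-1.70, SE 0.24, adjusted p = 0.00114), and Siglech, of plasmacytoid cells, fell by 1.44. Xcr1, which also marks cross-presenting cells, was not called (-0.09, adjusted p = 0.935), and neither was Zbtb46 (0.46, adjusted p = 0.555). Dendritic cells carry high levels of class II genes, and their part in the fall of those genes was not tested. None of the 12 endothelial, 11 stromal, 6 podocyte, 3 NK cell or 5 erythroid genes tested was called by limma. At an unadjusted p under 0.05, against 19.7% of all genes, 1 endothelial and 1 podocyte gene were lower, 4 stromal genes and 1 NK cell gene were higher, and no erythroid gene differed. Of the genes of eosinophils, mast cells and basophils, none reached the filter.

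The last comparison asked whether the change in macrophages differed from the change between the same surgeries in the other sorted populations. In 14332 genes over all 44 samples, the macrophage change differed (limma interaction, adjusted p under 0.05) from that in proximal tubule cells for 15.5% of genes, 253 higher and 1963 lower, from that in endothelial cells for 2.31%, 158 and 173, and from that in stromal cells for 16.2%, 1194 and 1130. The split for tubule cells depends on scaling, since after quantile normalization it was 694 higher and 918 lower. Without the tubule sample whose title names both surgeries it was 198 higher and 1883 lower. The labels do not say which populations came from 1 mouse.

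Of the 24 genes with the largest changes, chosen for their macrophage change, the difference passed for 17 of 22 tested against tubule cells, for 14 against endothelial cells and for 13 against stromal cells. Fcrls, Nxpe5, Cd38, Ccl8 and AC238811.2 differed from all 3 among the rises, and Mmp13, Hs3st1, Slc6a12, Agap2 and 4930479D17Rik among the falls. Mmp13 was near 0 elsewhere, with sham and UUO means of 0.183 and 0.138 FPKM in tubule cells and 0.263 and 0.297 FPKM in endothelial cells. In stromal cells its means were 0.237 and 3.43 FPKM, and the macrophage change was lower by 4.67 on the log2 scale (adjusted p = 2.3e-08). Hs3st1 changed by 1.05 in tubule, 0.73 in endothelial and 1.79 in stromal cells, against -3.06 in macrophages, and the difference passed against each.

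Ccl7 differed from tubule cells (by 2.92, adjusted p = 0.00287) and endothelial cells (by 2.46, adjusted p = 0.0495), but not from stromal cells (by 0.50, adjusted p = 0.683), where its fitted change was 2.85. Ier3 had a fitted change of 3.68 in tubule cells, and the difference there did not pass (adjusted p = 0.291). Klk1 had fitted changes of -2.62 in endothelial and -4.73 in stromal cells and 0.81 in tubule cells, so the macrophage change lay below that in tubule cells, above that in stromal cells and was not told from that in endothelial cells (adjusted p = 0.982). Miox changed by -2.02 in tubule, -1.95 in endothelial and -2.02 in stromal cells, and its difference passed only against stromal cells (-1.25, adjusted p = 0.0426).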

How the data were processed

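RNA of kidney cells sorted by flow cytometry had been amplified, sequenced as paired reads and deposited by the authors as 1 table of FPKM for 53465 mouse genes. The submitters' processing notes name FastQC, Bowtie2, RSEM, DESeq2 and mm10; versions are not given in the sources used here. The table's gene positions (mm10) were the same as in GENCODE M21 for 51421 genes. The members and lists were chosen with earlier results of these data known. Of 46 value columns 44 were used; 2 that share 1 name were not. LTL+ Sham 3, a tubule sample, had no column of its own, and tubule UUO sample 2 was grouped by its treatment label (UUO), since its title names both surgeries. For symbols under more than 1 identifier (110) the identifier with the highest mean was kept.

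Genes whose mean over the 11 macrophage samples reached 1 FPKM were tested on log2(FPKM + 1) with limma 3.58.1 (intensity trend) in R 4.3.3, with UUO against sham as contrast. Interactions were fitted over 44 samples. Single genes also had the exact permutation test. Tested on simulated data, the fit of UUO against sham over 13332 genes recovered 24% of genes changed by 1 and 80% of those changed by 2 on the log2 scale (200 genes changed). FPKM keeps no read totals, so no counting interval is given.

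Named genes were the 12 largest rises and falls among called genes whose groups did not overlap, up to 6 called members of each list by the size of the change, defining members that did not pass, and the sort markers; other called proximal tubule members, Cxcl10 and Ldha were added after their values were seen. Tubule share was the median, over 24 proximal tubule genes, of a macrophage sample's level divided by the mean level in tubule samples of the same surgery; share times that mean was subtracted as an alternative. Promoter windows are the 120 bases before the start in the RefSeq table. Other alternatives were the pseudocount, filter, scaling, samples fitted, trend, replicate block, GC content and leaving out each sample.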

Additional observations from a re-analysis of the deposited data

Results flagged for a closer look

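In 12 of 134 groups of 4 samples, 1 sample lay far from the other 3 (its gap to the nearest, divided by the group's range, exceeded Dixon's critical value); chance gives about 1 in 20 such groups. On the log2 scale these were Ccl7 in sham sample 2 (0.847), Slc6a12 (1.0) and Gm30671 (1.0) in UUO sample 4, which alone was not listed at 0, Klk1 in sham sample 1 (0.919) and Adgre1 in sham sample 3 (0.836). The mitochondrial percentage stood apart in sham sample 3 (0.926). Of the summed lists, the resident macrophage (0.867) and lysosomal genes (0.856) stood apart in UUO sample 2, complement genes in sham sample 4 (0.846), collecting duct genes in sham sample 2 (0.866), and T cell (0.836) and dendritic cell genes (0.922) in UUO sample 3.

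For 44 comparisons of the 24 leading genes, the change in macrophages minus that in another population passed limma's interaction test. Against proximal tubule cells the differences among the rises were 3.29 for Igkc, 3.32 for Igha, 2.92 for Ccl7, 2.46 for Fabp5, 2.93 for Fcrls, 3.10 for Nxpe5, 2.77 for Ccl8, 2.65 for Cd38 and 2.90 for AC238811.2. Among the falls they were -3.62 for Mmp13, -3.38 for 4930479D17Rik, -3.66 for Slc6a12, -4.11 for Hs3st1, -3.46 for Adgrl3, -2.13 for Fxyd2, -2.59 for Agap2 and -3.38 for Klk1.

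Against endothelial cells the differences were 4.11 for Igkc, 2.46 for Ccl7, 2.38 for Fabp5, 3.05 for Fcrls, 1.92 for Ier3, 2.96 for Nxpe5, 2.19 for Ccl8, 2.48 for Cd38 and 2.88 for AC238811.2, and -3.71 for Mmp13, -3.46 for 4930479D17Rik, -2.81 for Slc6a12, -3.79 for Hs3st1 and -2.47 for Agap2. Against stromal cells they were 2.92 for Fcrls, 3.00 for Nxpe5, 2.13 for Ccl8, 2.94 for Cd38 and 3.34 for AC238811.2 among the rises. Among the falls they were -4.67 for Mmp13, -3.58 for 4930479D17Rik, -1.25 for Miox, -3.21 for Slc6a12, -3.56 for Gm30671, -4.85 for Hs3st1 and -2.90 for Agap2, and 2.16 for Klk1, which fell less in macrophages than its fitted change in stromal cells.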

How the results depend on the processing

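The number of genes called differed between alternatives. Against 665 called, 381 higher and 284 lower, there were 364 (203 and 161) with no filter on low values, 359 (206 and 153) with the 8 sham and UUO samples only, 1338 (711 and 627) in the fit on all populations and 443 (210 higher) with no intensity trend. Without 1 replicate, 272 to 736 genes were called, 167 to 465 higher and 105 to 271 lower. By sample, the total was 297, 272 and 415 without sham samples 1, 2 and 3, and 380 and 442 without UUO samples 1 and 3. Of the 93 listed genes called, 58 were called with no filter and 61 to 117 without 1 replicate. Quantile normalization gave 339 higher and 325 lower. The endothelial difference of 331 genes became 200 with a pseudocount of 0.1. The mean tubule share was 5.75% in sham and 4.54% in UUO by summed rather than median share. With that share subtracted, an alternative chosen after seeing the data, Spp1 turned to -1.44 and Lcn2 to -0.20. For both genes UUO samples 3 and 4 went below 0 in that subtraction and were set to 0. Without tubule UUO sample 2, also chosen after seeing the data, the interaction with tubule cells held for 2081 genes and the subtraction left 569 called, 361 higher and 208 lower. Uncalled markers changed sign near 0: Adgre1 ran from -0.15 to 0.019 and Pecam1 from -0.18 to 0.18 without 1 replicate, and Pecam1 was -0.033 after rescaling to TPM. The alternatives were counted for 96 called genes: the largest rises and falls and the leading called members of the lists of macrophage functions. Cd74, Igf1 and called genes named only from lists of other cell types, such as Gpx3, Cd3e and Clec9a, were not counted. Of 2199 values under these alternatives, 1920 kept their direction and their call, 277 kept only the direction and 2 reversed. The cause of these shifts was not tested.

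Same-numbered sham and UUO samples did not deviate together (correlations -0.0378, 0.0373, 0.0152 and 1e-04), and with the replicate block 346 genes were called, 220 higher and 126 lower. Depth is known only relative to the other libraries, so genes near 1 FPKM and those listed at 0 carry the least certain values.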
